A study of Mus musculus with 8 samples.

Results

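The mitochondrial ribosomal protein genes are the nuclear genes named Mrpl or Mrps with a number, which encode proteins of the large and the small subunit of the ribosome inside mitochondria. They were chosen by gene symbol alone, and the platform annotation held 76 of them among 16593 genes with a symbol, 47 Mrpl and 29 Mrps, on 110 of the 25697 probes of an Illumina MouseRef-8 v2.0 bead array. Total RNA of V6.5 mouse cells, an embryonic stem cell line, was compared between 4 clones labelled GRHL2 knockout and 4 subclones labelled GRHL2 wildtype, with 1 array for each. All 8 had been kept for 3 days without LIF and without the 2 inhibitors (of GSK and MEK) that hold stem cells in the naive state, and the labels call the cells epiblast. Each knockout sample was 1 clone, and the labels give neither the deleted part of the gene nor the chip of each array.

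The mitochondrial ribosome translates the few messenger RNAs of the mitochondrial genome, which all encode core subunits of the respiratory chain and the ATP synthase. Its RNAs come from the mitochondrial genome, while all its proteins are encoded in the nucleus, made in the cytosol and imported. Some of them have counterparts in bacterial ribosomes, and most of these carry the lower numbers of the naming scheme. Others are found in mitochondria only. GRHL2 is a grainyhead-like transcription factor of epithelia.

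Of the 25697 probes, between 12414 and 13250 were detected on each array (detection p under 0.05). The knockout arrays were dimmer, with a mean intensity before normalization of 508 ± 51.5 (SD, n = 4) against 703 ± 32.4 (SD, n = 4) in wildtype (exact permutation p = 0.0286, the smallest possible). Grhl2 averaged 7.71 ± 0.43 in knockout and 8.84 ± 0.60 in wildtype (SD, n = 4 each) on the log2 scale, a change of -1.13 (limma adjusted p = 0.0369), and this call was lost when any of 6 arrays was left out (adjusted p up to 0.0835, change between -1.36 and -0.88). Its signal was above background on every knockout array. All 9 epiblast markers, among them Pou5f1, Dnmt3b, Fgf5 and Otx2, were detected on all 8 arrays, and Pou3f1 and Utf1 rose (0.88 and 0.46). Of the 9 epiblast markers, 7 had a positive change. Their summed normalized intensity overlapped, with 36869 to 38755 on the knockout arrays and 32338 to 38683 on the wildtype arrays. Of the markers of other cell types, 4 of 6 on the platform for naive stem cells, 3 of 6 for trophoblast, 2 of 7 for fibroblasts and 1 of 6 for endoderm passed the detection filter, and of these Klf2, a naive marker, rose by 1.03 (adjusted p = 0.0265). Only 2 of the 4 naive markers had a positive change, and their median was -0.01. The summed normalized intensity of the naive markers overlapped, with 749 to 944 on the knockout arrays and 572 to 1416 on the wildtype arrays. The summed normalized intensity of the trophoblast markers was 115 to 223 on the knockout arrays and 225 to 480 on the wildtype arrays, and the part of this in the results was not tested. By chromosome, knockout replicate 1 (chromosomes 6 and 8) and wildtype replicate 3 (chromosome 6) stood farthest apart, with a smaller shift of chromosome 2 on wildtype replicate 4. Members on these chromosomes are given without those arrays as well.

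Most mitochondrial ribosomal protein genes differed little between knockout and wildtype. Of the 76 genes, 71 passed the filter on dim probes (detection p under 0.05 on at least 4 arrays), and 70 of these were detected on all 8 arrays. Of the 71, 8 changed (11.3%, limma adjusted p under 0.05), against 13.7% of the 8830 genes tested. In knockout, 7 of the 71 rose (9.86%, against 6.55% of all genes) and 1 fell (1.41%, against 7.17% of all genes). The median log2 change was 0.05 over the 71 and 0.01 over all genes, and the middle part of the members, between the quartiles, ran from -0.13 to 0.21, against -0.22 to 0.23 for all genes. The 63 genes that did not pass had changes between -0.45 and 0.50. For 69 of the 71, the 95% interval of the change lay inside a 2-fold change in either direction. It lay within 0.5 on the log2 scale for 40 of them (56.3%, against 37.4% of all genes). At an unadjusted p under 0.05 there were 18 members, and the background was 32% of all genes. With the brightness of the arrays as a covariate 0 members and 5 genes in all passed, and since every knockout array was dimmer than every wildtype array, brightness and genotype cannot be told apart. The directions given hold for quantile normalization. With arrays scaled to one median, the median of all genes moved to -0.35 and that of the members to -0.35, so that 0 members rose and 27 fell beside 133 higher and 3474 lower genes in all. Without any scaling between arrays these medians were both -0.58, and 0 members rose and 51 fell, beside 36 higher and 5735 lower genes in all. Relative to the median of all genes, each of the 8 called genes kept its sign under all of these, and the members' median was 0.04 with quantile normalization and -0.0031 with either of the others.

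**Figure D1:**
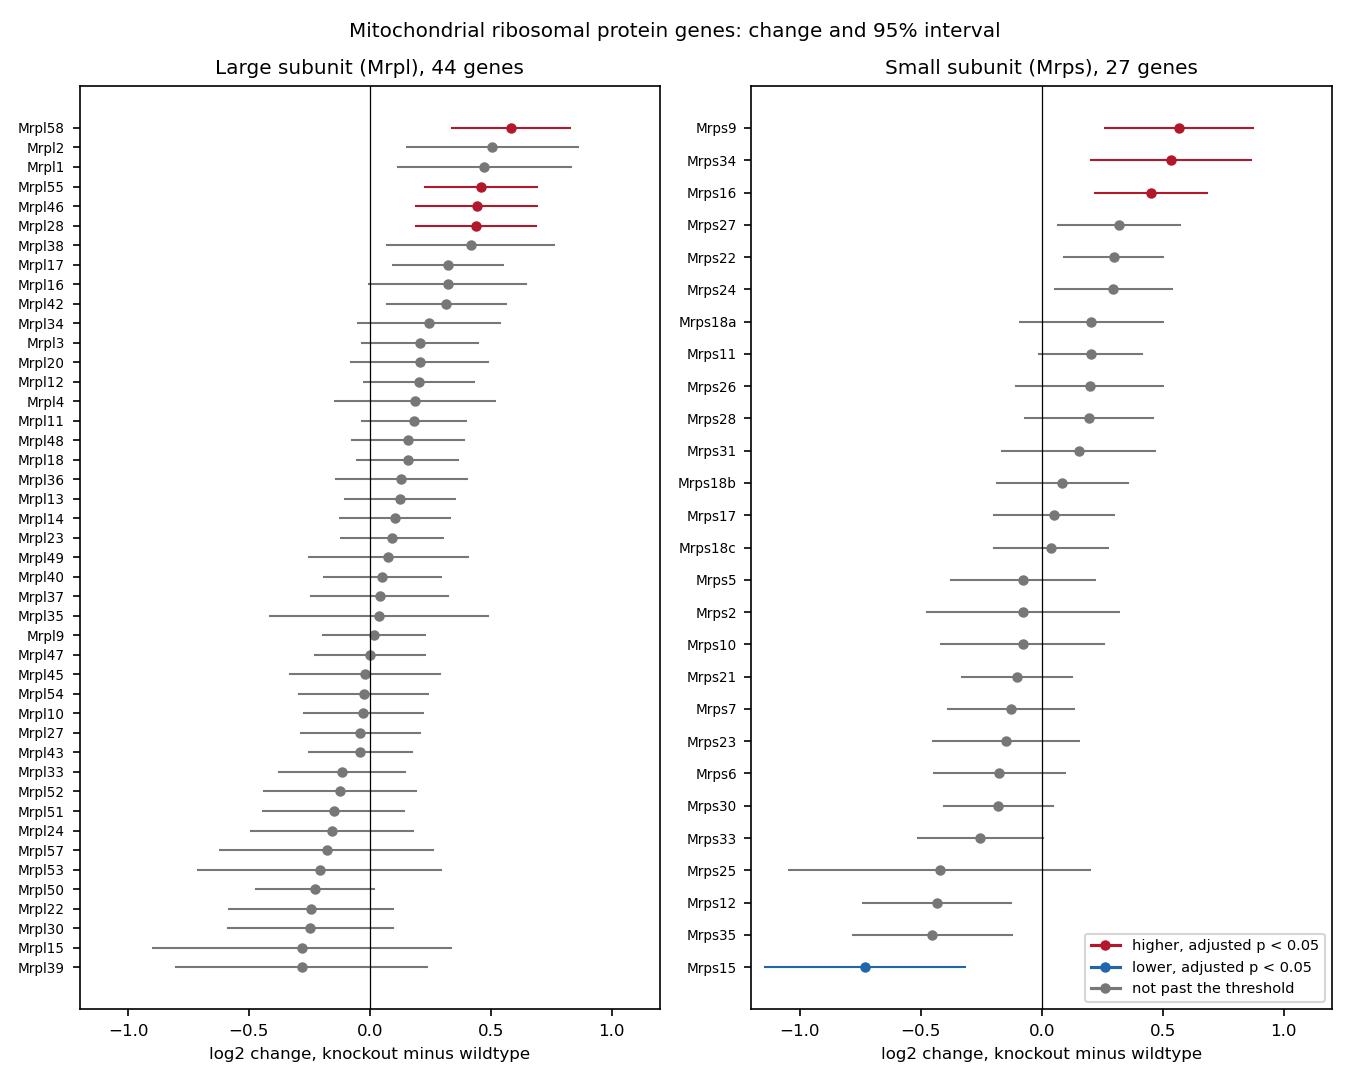
Log2 change (knockout minus wildtype) of the 71 measured genes, points, with its 95% interval, lines. The panels are split by name, Mrpl (titled large subunit) and Mrps (titled small subunit). The 7 red genes rose and the 1 blue gene, Mrps15, fell at an adjusted p under 0.05, and most grey intervals cross 0.

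The 7 genes that rose lie in both subunits. Mrpl58, a peptidyl-tRNA hydrolase of the large subunit that frees stalled ribosomes, gave log2 values of 9.07, 8.94, 8.81 and 8.85 on knockout replicates 1 to 4, against 8.17, 8.41, 8.34 and 8.44 on wildtype replicates 1 to 4. The groups did not overlap, and the spread within each was small against the gap. The change was 0.58 (SE 0.11, limma adjusted p = 0.0124), the only one of the 8 calls that held with each array left out in turn (adjusted p up to 0.0368). Mrps9, the counterpart of bacterial S9, gave 11.57, 11.45, 11.48 and 11.43 in knockout and 10.54, 11.15, 11.02 and 10.94 in wildtype. Its lowest value was on wildtype replicate 1, and the groups were apart. The change was 0.57 (SE 0.14, adjusted p = 0.0266).

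Mrps34, a small subunit protein without a bacterial counterpart, gave 11.89, 11.72, 11.49 and 11.87 in knockout and 10.89, 11.20, 11.49 and 11.26 in wildtype. Knockout replicate 3 and wildtype replicate 3 were equal to 2 decimals, with the knockout array just above, and the change of 0.54 (SE 0.15, adjusted p = 0.0424) was the call nearest the threshold. Mrpl55 gave 9.85, 9.65, 9.61 and 9.71 in knockout and 9.26, 9.36, 9.13 and 9.23 in wildtype, a change of 0.46 (SE 0.10, adjusted p = 0.0216). Mrps16, the counterpart of bacterial S16, was almost equal on the knockout arrays, with 11.07, 11.01, 10.99 and 11.04, against 10.39, 10.58, 10.72 and 10.62 in wildtype. It rose by 0.45 (SE 0.10, adjusted p = 0.0232).

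The remaining genes that rose belong to the large subunit. Mrpl46, which has no bacterial counterpart, gave 11.56, 11.60, 11.53 and 11.42 in knockout and 10.87, 11.24, 11.06 and 11.17 in wildtype, a change of 0.44 (SE 0.11, adjusted p = 0.0322). Mrpl28, the counterpart of bacterial L28, gave 12.44, 12.35, 12.45 and 12.29 in knockout and values between 11.77 (replicate 1) and 12.13 (replicate 2) in wildtype, a change of 0.44 (SE 0.11, adjusted p = 0.0315). For 6 of these 7 genes the lowest of all values was that of wildtype replicate 1. Without that array 4 of the 7 still passed (Mrpl55, Mrpl58, Mrps16 and Mrps9), and without wildtype replicate 4 only Mrpl58 did.

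Mrps15 was the gene that fell. It encodes the counterpart of bacterial S15, a protein that binds the RNA of the small subunit. Its values were 7.68, 7.71, 7.65 and 7.12 in knockout and 8.51, 8.38, 7.82 and 8.38 in wildtype. Knockout replicate 4 lay far below the others of its group, and wildtype replicate 3 was the wildtype array closest to the knockout values. The change was -0.73 (SE 0.19, 1.66-fold lower, adjusted p = 0.0320), the largest of the 71 in size, and the call was lost when any of 6 arrays was left out (adjusted p up to 0.0814). The change stayed between -0.88 and -0.59 across those fits.

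**Figure D2:**
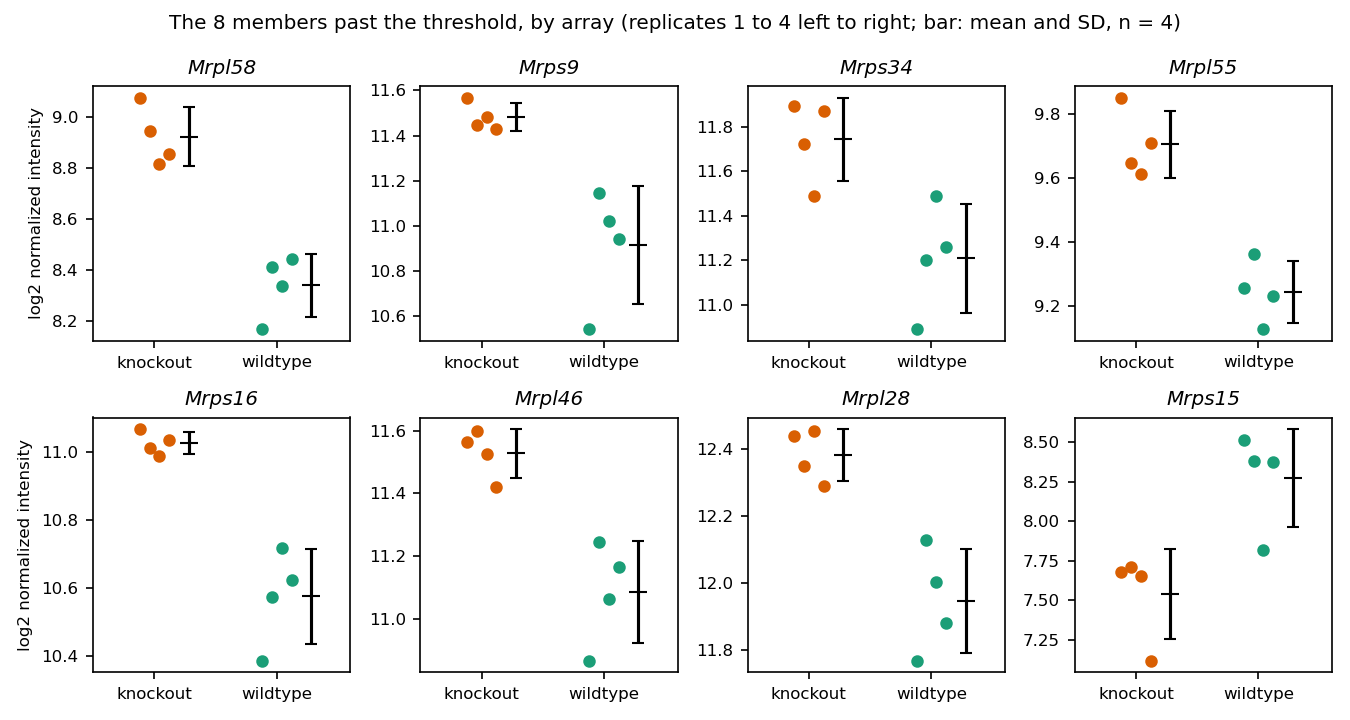
Log2 normalized intensity of the 8 genes past the threshold on each array, with knockout arrays on the left of each panel and wildtype arrays on the right (bar: mean and SD, n = 4). Axes differ between panels. The knockout arrays lie above all wildtype arrays in 7 panels and below them for Mrps15.

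Groups of arrays that did not overlap were found for 18 of the 71 genes (25.4%), against 23.2% of all genes tested. In 16 of these all knockout arrays lay above (12.4% of all genes did) and in 2, Mrps15 and Mrps33, below (10.8% of all genes did). A further 10 genes had an adjusted p between 0.05 and 0.1, 8 of them with a positive change. The share of all genes in this band was not counted, so this count and its split show nothing particular to the members. Among these, Mrpl2, the counterpart of bacterial L2 at the catalytic core of the large subunit, gave 11.33, 11.34, 11.31 and 11.30 in knockout and 10.31, 10.98, 11.05 and 10.90 in wildtype, a change of 0.50 (adjusted p = 0.0612). The knockout values were nearly equal, and wildtype replicate 1 was low. Mrps22, a small subunit protein of mitochondria only, gave 10.70, 10.67, 10.65 and 10.66 in knockout and 10.28, 10.41, 10.44 and 10.35 in wildtype, a change of 0.30 (adjusted p = 0.0586). The 2 with a negative change belong to the small subunit. Mrps12, the counterpart of bacterial S12 of the decoding site, gave 11.38, 11.05, 11.01 and 11.10 in knockout and 11.84, 11.60, 11.32 and 11.51 in wildtype, a change of -0.43 (adjusted p = 0.0637). Mrps35, which has no bacterial counterpart, had a change of -0.45 (adjusted p = 0.0683). Both Mrps35 and Mrps33 (change -0.25, adjusted p = 0.163) lie on chromosome 6, and their changes without the shifted arrays are given below.

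By name, 4 of 44 Mrpl genes rose and 0 fell at an adjusted p under 0.05, with a median change of 0.08. Of 27 Mrps genes 3 rose and 1 fell, with a median of 0.04. The names do not give the subunit of every protein, and the split is by name alone. By the numbering, 3 of the 40 measured genes with lower numbers (Mrpl up to 36, Mrps up to 21) rose and 1 fell, with a median of 0.09. This class was set by number alone and does not separate all genes with a bacterial counterpart from those without. Of the 31 measured genes with higher numbers 4 rose and 0 fell, with a median of 0.04. The share called was 9.09% for the Mrpl and 14.8% for the Mrps names. It was 10% for the lower and 12.9% for the higher numbers, against 13.7% of all genes tested. The difference between these classes was not tested. The 3 copies of the S18 protein did not pass the threshold, with changes of 0.21 for Mrps18a, 0.09 for Mrps18b and 0.04 for Mrps18c. Mrpl47 had the smallest change of all 71, 0.00, with 95% limits of -0.23 and 0.23.

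The arrays differed little in the members' common level. Taking each gene relative to its mean over the 8 arrays, the median of the 71 was 0.12, 0.08, -0.02 and 0.01 on knockout replicates 1 to 4, against -0.05, -0.0038, -0.09 and -0.06 on wildtype replicates 1 to 4. The groups overlapped, with wildtype replicate 2 above knockout replicate 3. The median SD of a member within a group was 0.13 in knockout and 0.16 in wildtype, against 0.19 in both groups for all genes. Within an array, the standard error over the beads of a probe (a median of 37 beads) was a median of 3.61% of the intensity for the 98 retained member probes.

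The 5 genes that were not measured, Mrpl19, Mrpl21, Mrpl32, Mrps14 and Mrps36, each had 1 probe that was detected on no array. Their probes give no level, and nothing follows for their transcripts. Mrps36 carries the name of the family although its protein is known as a subunit of the 2-oxoglutarate dehydrogenase complex. Mrpl57 was detected on 3 knockout arrays and all 4 wildtype arrays, with a change of -0.18 (adjusted p = 0.565).

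For 21 members more than 1 probe was retained, and the brightest stood for the gene. The retained probes of 11 of them differed in sign: Mrpl1, Mrpl3, Mrpl10, Mrpl18, Mrpl43, Mrpl48, Mrpl49, Mrpl51, Mrps5, Mrps10 and Mrps31. In a fit across all 12790 retained probes, 11 of the 98 member probes rose and 1 fell, against 6.17% of all retained probes that rose and 6.84% that fell. The 4 probes that rose beyond those of the 7 genes above belong to 3 genes whose representative probe did not pass. Mrpl49 had 4 retained probes. The one that stood for it had a change of 0.08 (adjusted p = 0.766). Another gave 8.57, 8.60, 8.66 and 8.77 in knockout and 7.73, 8.10, 8.03 and 8.09 in wildtype, with no overlap, and rose by 0.66 (limma adjusted p = 0.0106). One more rose by 0.47 (adjusted p = 0.0403) and the last had a change of -0.12 (adjusted p = 0.495). Mrps10 had changes of -0.08 (adjusted p = 0.759) and 0.44 (adjusted p = 0.0408) on its retained probes, and Mrps5 had -0.08 (adjusted p = 0.739) and 0.40 (adjusted p = 0.0410). For Mrpl1 the representative probe had a change of 0.47 and the other -0.45, both short of the threshold (adjusted p = 0.0789 and 0.0767). With the mean of all retained probes of a gene the same 8 genes were called. Which transcripts each probe binds was not analysed here.

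**Figure D3:**
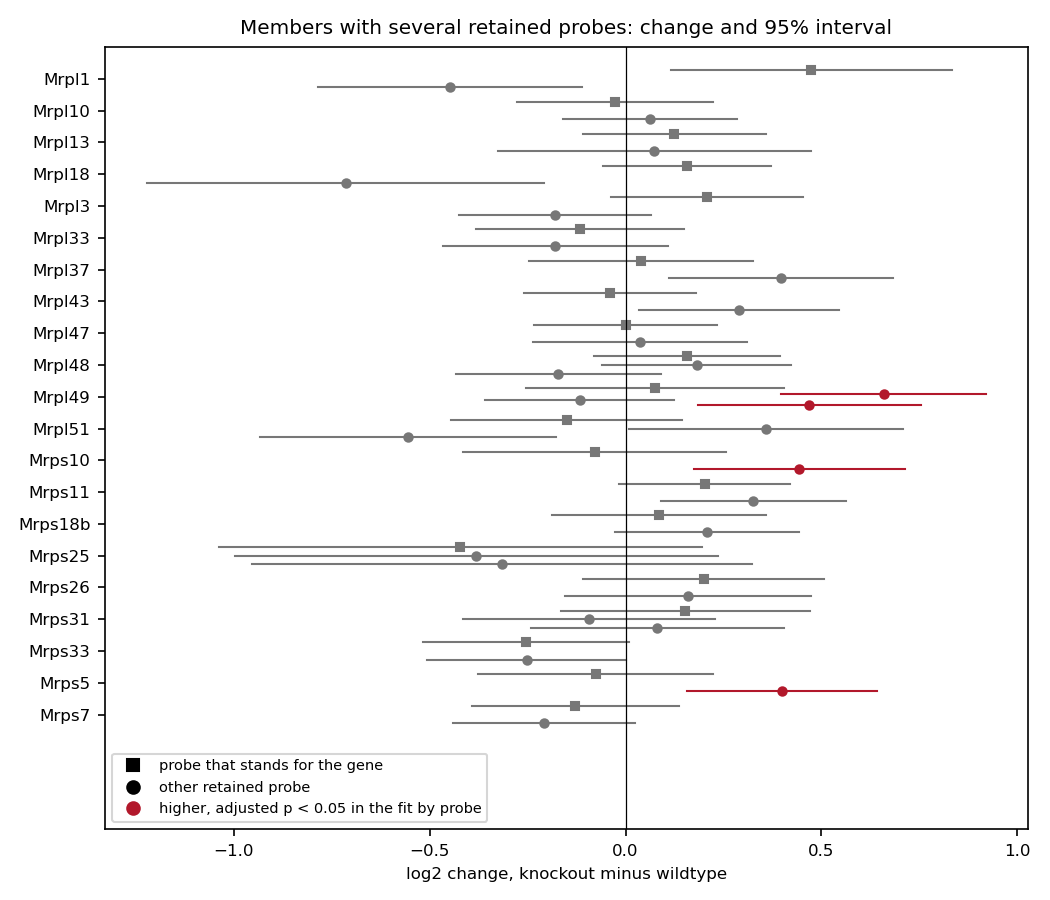
Log2 change (knockout minus wildtype) with its 95% interval for each retained probe of the 21 genes that had more than 1. Squares are the probes that stood for the gene, and red marks probes that rose at an adjusted p under 0.05. The probes that rose, of Mrpl49, Mrps10 and Mrps5, are all circles.

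The authors' deposited table, which gives a fold change and an adjusted p for each probe, held 18 of the 110 member probes as higher in knockout and 2 as lower at an adjusted p under 0.05. Over all its probes the share called was 8.62%, with 4.34% higher and 4.28% lower, and these include the undetected ones. Mrpl58 had a log2 change of 0.41 there and Mrps15 one of -0.50 in the authors' deposited table.

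Members on chromosomes 6, 8 and 2 varied with single clones. On knockout replicate 1, Mrps25 (6.81, against 8.13, 8.03 and 7.80 on knockout replicates 2 to 4) and Mrpl53 (10.72, against 11.75, 11.69 and 11.62) were low, and so was Mrpl35. Relative to the mean of the other knockout arrays these were -1.17, -0.96 and -0.53. All lie on chromosome 6, where their neighbours were low on that array as well. Of the 20 tested genes nearest in order to each, 18 were lower for Mrps25 (median -0.82), 20 for Mrpl53 (median -0.63) and 20 for Mrpl35 (median -0.80). The other members of chromosome 6 were not low there, with shifts of 0.15 for Mrps33, 0.07 for Mrpl51 and 0.35 for Mrps35, and medians of their neighbours (20, 20 and, at the chromosome's end, 14 genes) of 0.06, -0.04 and 0.09. In order along the chromosome, in groups of 20 tested genes, the medians on knockout replicate 1 were between -0.93 and -0.42 from gene 81 to gene 260 of 428. Outside this stretch, whose ends were set after seeing the values, they were between -0.17 and 0.34. In it 91.7% of 180 genes lay below the mean of knockout replicates 2 to 4, and 48.4% of 248 genes outside it.

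Wildtype replicate 3 gave all 6 members of chromosome 6 a higher value than the mean of its group's remaining arrays, by 0.05 (Mrps35) to 0.55 (Mrps25), beside a median of 0.40 over the 428 tested genes of that chromosome. Both members of chromosome 8, Mrps31 and Mrpl34, were low on knockout replicate 1, with shifts of -0.52 and -0.46, beside a median of -0.43 over the 492 tested genes of chromosome 8. The changes between the groups were also taken without knockout replicate 1 and wildtype replicate 3, and they did not all move alike. Mrps25 had a change of -0.42 (adjusted p = 0.324) with all arrays and of 0.01 (adjusted p = 0.976) without those 2 arrays, and Mrpl53 had -0.21 (adjusted p = 0.558) with all and 0.14 (adjusted p = 0.332) without them. Mrpl35 had 0.04 (adjusted p = 0.912) with all and 0.23 (adjusted p = 0.436) without them. Mrps33 moved little, from -0.25 (adjusted p = 0.163) to -0.22 (adjusted p = 0.185), and so did Mrpl51, from -0.15 (adjusted p = 0.458) to -0.13 (adjusted p = 0.551). Mrps35 went the other way, from -0.45 (adjusted p = 0.0683) to -0.53 (adjusted p = 0.0504). On chromosome 8, Mrps31 had 0.15 (adjusted p = 0.487) with all and 0.29 (adjusted p = 0.110) without them, and Mrpl34 had 0.24 (adjusted p = 0.229) and 0.31 (adjusted p = 0.0615). On wildtype replicate 4 the 3 members of chromosome 2 were high, Mrps2 by 0.42, Mrps5 by 0.32 and Mrps26 by 0.23, beside a median of 0.15 over 716 tested genes, of which 76.7% were higher. Without that array their changes were 0.03, 0.0041 and 0.26, against -0.08, -0.08 and 0.20 with all, none past the threshold. None of the 8 called genes lies on chromosome 2, 6 or 8. Without knockout replicate 1 and wildtype replicate 3, 8 members rose and 3 fell, while the share of all genes called was 19.7%, against 13.7% with all arrays. Of these members 7 were among the 8 called with all arrays. Mrpl46 was then no longer called, while Mrpl17 and Mrpl42 rose and Mrpl15 and Mrps12 fell.

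**Figure D4:**
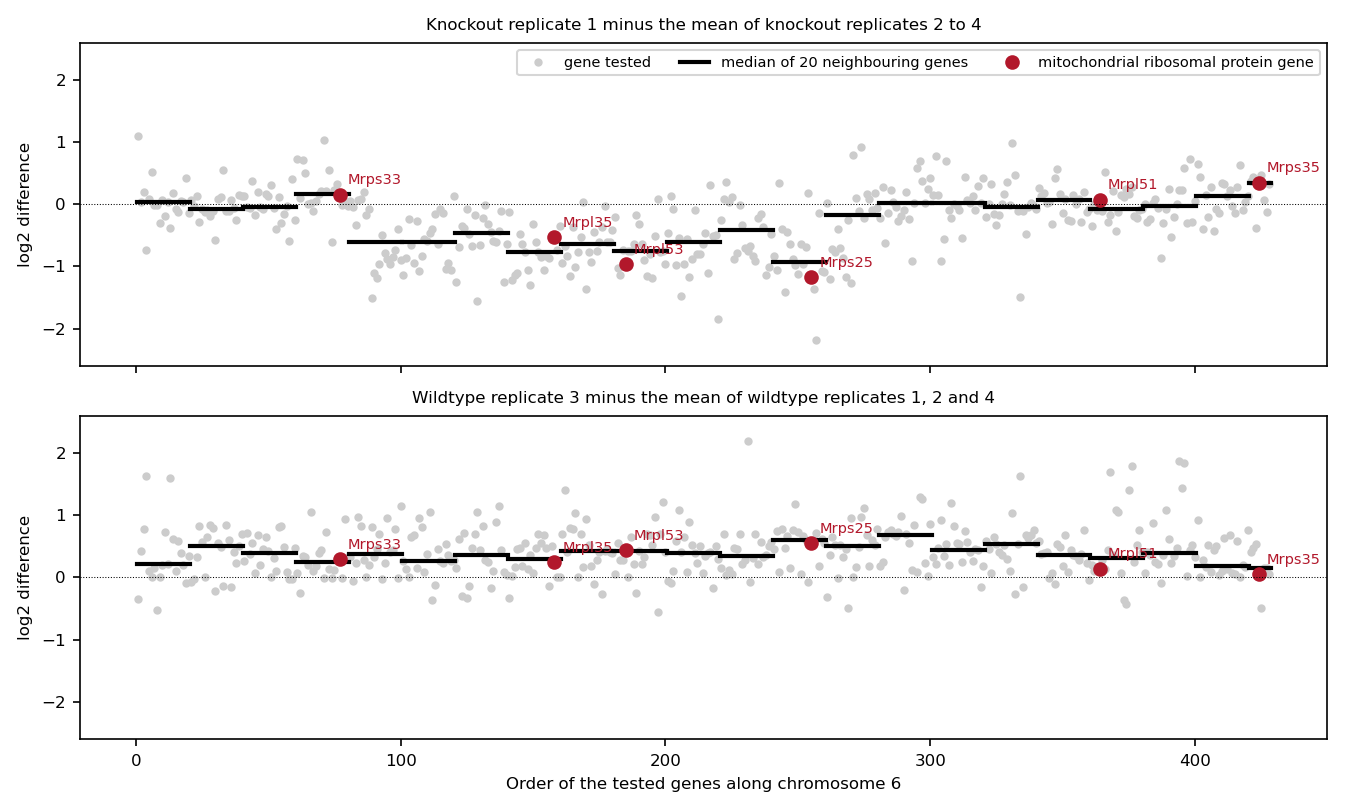
Log2 difference of each tested gene of chromosome 6 (grey points) on knockout replicate 1, above, and wildtype replicate 3, below, from the mean of the other arrays of its group, by order along the chromosome. Black bars are medians of 20 neighbouring genes and red points are the 6 members. Mrpl35, Mrpl53 and Mrps25 lie in the stretch that was low on knockout replicate 1.

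The start regions of the genes were read from RefSeq windows of 250 bases before to 50 after the start (GRCm38.p6), which matched 67 of the 76 members with 73 windows. The core letters bound by ETS factors such as GABPA (CCGGAAG, both strands) were in 26 of the 73 (35.6%), against 8.86% of all 32851 windows. Those of YY1 (ATGGCGG) were in 17.8%, against 4.05%, and those of NRF1 (GCGCATG) in 8 of the 73, against 3.91% of all windows. YY1 and NRF1 matches can share the letters ATG. The core of the grainyhead motif (ACCGGT) was in 4 of the 73 (5.48%), against 2.33% of all windows, and in 0 of the 8 windows of called genes (7 genes, Mrps16 with 2 windows; Mrps34 was not matched). CCAAT, bound by NFY, was in 39.7%, against 37.4%, and the E-box CACGTG in 9.59%, against 7.15%. A match is a description of these letters, and windows were not matched for base composition. Windows are shown for the gene with the most stable rise, for another that rose, for the gene that fell and for a head-to-head pair, with the ETS and CCAAT letters, the only searched motifs found in the windows of called genes, in capitals on either strand.
Mrpl58, chr11:115403502-115403801, strand +: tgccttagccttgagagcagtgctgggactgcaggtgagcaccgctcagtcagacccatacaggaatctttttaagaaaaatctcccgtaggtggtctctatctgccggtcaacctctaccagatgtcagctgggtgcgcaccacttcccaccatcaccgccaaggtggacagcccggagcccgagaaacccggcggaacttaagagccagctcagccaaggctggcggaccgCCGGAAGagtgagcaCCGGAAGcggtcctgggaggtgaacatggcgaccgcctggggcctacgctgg
Mrps16, chr14:20393441-20393740, strand -: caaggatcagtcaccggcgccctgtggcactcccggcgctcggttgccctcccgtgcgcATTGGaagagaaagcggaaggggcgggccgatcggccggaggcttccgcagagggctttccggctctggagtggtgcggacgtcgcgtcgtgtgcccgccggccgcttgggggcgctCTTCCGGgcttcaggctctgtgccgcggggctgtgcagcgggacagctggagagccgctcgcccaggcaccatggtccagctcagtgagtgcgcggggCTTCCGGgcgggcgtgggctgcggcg
Mrps15, chr4:126046678-126046977, strand +: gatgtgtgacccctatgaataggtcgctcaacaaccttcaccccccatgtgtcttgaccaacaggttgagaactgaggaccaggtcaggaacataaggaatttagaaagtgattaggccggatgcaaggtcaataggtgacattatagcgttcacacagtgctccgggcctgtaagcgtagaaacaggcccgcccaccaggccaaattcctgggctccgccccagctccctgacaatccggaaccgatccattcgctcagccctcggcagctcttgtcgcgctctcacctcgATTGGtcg
Mrpl46, chr7:78783040-78783339, strand -: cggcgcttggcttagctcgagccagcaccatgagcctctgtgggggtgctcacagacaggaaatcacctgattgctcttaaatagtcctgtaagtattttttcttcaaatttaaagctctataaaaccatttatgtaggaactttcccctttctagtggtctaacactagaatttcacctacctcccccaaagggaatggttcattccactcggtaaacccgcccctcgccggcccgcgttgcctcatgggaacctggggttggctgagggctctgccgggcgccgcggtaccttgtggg
The Mrpl58 window holds the ETS letters at 2 places, just before the start and across it. The Mrps16 window holds them on the other strand before and after the start, with an inverted CCAAT farther upstream, and the Mrps15 window only an inverted CCAAT. The Mrpl46 window holds none of the letters searched.

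Many members start back to back with another gene. For 23 of the 67 (34.3%) a start on the opposite strand lay within 500 bases upstream, against 10.9% of the 27025 genes with a window. The starts of Mrpl46 and Mrps11 are 42 bases apart, and 1 of the pair passed: Mrpl46 rose by 0.44, while Mrps11 had a change of 0.20 (adjusted p = 0.174). The knockout values of Mrps11 were 9.97, 10.00, 9.88 and 9.98, all above the wildtype values of 9.75, 9.74, 9.86 and 9.67. Its other retained probe had a change of 0.33 (adjusted p = 0.0692 in the fit by probe). Partners did not always move with the member. Tcp1, a chaperonin subunit that starts 238 bases from Mrpl18, fell by 0.42 (adjusted p = 0.0368) while Mrpl18 had a change of 0.16 (adjusted p = 0.278). Helq, a DNA helicase beside Mrps18c, fell by 0.37 (adjusted p = 0.0493), while Mrps18c had a change of 0.04 (adjusted p = 0.837). Cyb5rl, which starts 128 bases from Mrpl37, rose by 0.71 (adjusted p = 0.0299). Mrpl37 had a change of 0.04 (adjusted p = 0.854) on its representative probe and of 0.40 on its other retained probe (adjusted p = 0.0687 in the fit by probe). Sars2, the mitochondrial seryl-tRNA synthetase that starts 147 bases from Mrps12, had a change of 0.22 (adjusted p = 0.431), against -0.43 for Mrps12.

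Proteins of the mitochondrial ribosome that carry other names were listed apart. Of 3 measured, 1 fell, beside 7.17% of all genes tested. Ptcd3, a pentatricopeptide repeat protein of the small subunit, gave 8.39, 8.78, 8.99 and 8.44 in knockout and 9.48, 9.32, 9.38 and 9.33 in wildtype. All knockout arrays lay below all wildtype arrays, and the change was -0.73 (SE 0.14, adjusted p = 0.0149). Ptcd3 lies in the stretch of chromosome 6 that was low on knockout replicate 1, with a shift of -0.35 on that array, and without that array its change was -0.64 (adjusted p = 0.0233). Dap3, a GTP-binding protein of the small subunit, had a change of 0.30 (adjusted p = 0.0933), and Chchd1 one of -0.02.

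Among genes that assemble or serve this ribosome, both directions were found at an adjusted p under 0.05. Over all genes tested 6.55% rose and 7.17% fell. Of 25 measured genes of ribosomal RNA modification and assembly 3 rose and 1 fell, with a median of 0.06. Rbfa, which matures the small subunit RNA, rose by 0.66 (adjusted p = 0.0269) and the GTPase Noa1 by 0.46 (adjusted p = 0.0263). The mitochondrial protease Clpp rose by 0.35 (adjusted p = 0.0415). Mterf3, a factor of mitochondrial transcription and large subunit assembly, fell by 0.56 (adjusted p = 0.0356). Of 15 translation factors 1 fell and 0 rose, with a median of 0.00. It was the elongation factor Gfm1, with 7.75, 8.10, 7.99 and 7.85 in knockout against 8.80, 8.52, 8.26 and 8.22 in wildtype, a fall of 0.53 on the log2 scale (adjusted p = 0.0441).

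Of 14 measured genes that charge mitochondrial transfer RNAs 3 rose and 0 fell, with a median of 0.21 (21.4% called, against 13.7% of all genes). Gatb and Gatc encode subunits of the amidotransferase that makes glutaminyl-tRNA in mitochondria. Gatb gave 7.76, 7.53, 7.72 and 7.53 in knockout and 6.20, 6.90, 6.82 and 6.87 in wildtype, a change of 0.94 (SE 0.16, adjusted p = 0.0103). Gatc rose by 0.57 (SE 0.12, adjusted p = 0.0197), and the tryptophanyl-tRNA synthetase gene Wars2 by 0.63 (SE 0.16, adjusted p = 0.0344). Of 13 measured regulators of mitochondrial genes 1 fell and 0 rose (7.69% called), with a median of 0.11. This was Tfam, which packages and transcribes mitochondrial DNA, with 9.95, 9.98, 9.93 and 9.77 in knockout against 10.60, 10.45, 10.25 and 10.31 in wildtype, a change of -0.49 (SE 0.11, adjusted p = 0.0224). Nrf1 and Gabpa, whose proteins bind letters searched in the promoters, had changes of 0.53 (adjusted p = 0.0527) and -0.04 (adjusted p = 0.870). Nrf1 lies on chromosome 6, with a shift of 0.45 on wildtype replicate 3, and its change without that array is not given here.

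Set beside the gene families most like them, the members had a share of called genes between those of both, where 13.7% of all genes were called. Of 80 measured respiratory chain and ATP synthase genes, whose mitochondrial partners are made by this ribosome, 9 rose and 4 fell (16.2%), with a median of 0.08. The lowest was Cox6c, a subunit of cytochrome c oxidase, with a change of -1.43 (adjusted p = 0.00615), and Atp5g1, a subunit of the ATP synthase ring, rose by 0.51 (adjusted p = 0.0134). Ndufb11, a subunit of complex I, rose by 0.82 (adjusted p = 0.0460), and its assembly factor gene Ndufaf4 fell by 0.71 (adjusted p = 0.0200). Of 54 measured cytosolic ribosomal protein genes 1 rose, Rpl29, and 1 fell, Rpl4 (3.70%), with a median of 0.05. The differences between the families were not tested, and the lists were compared by counts alone.

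**Figure D5:**
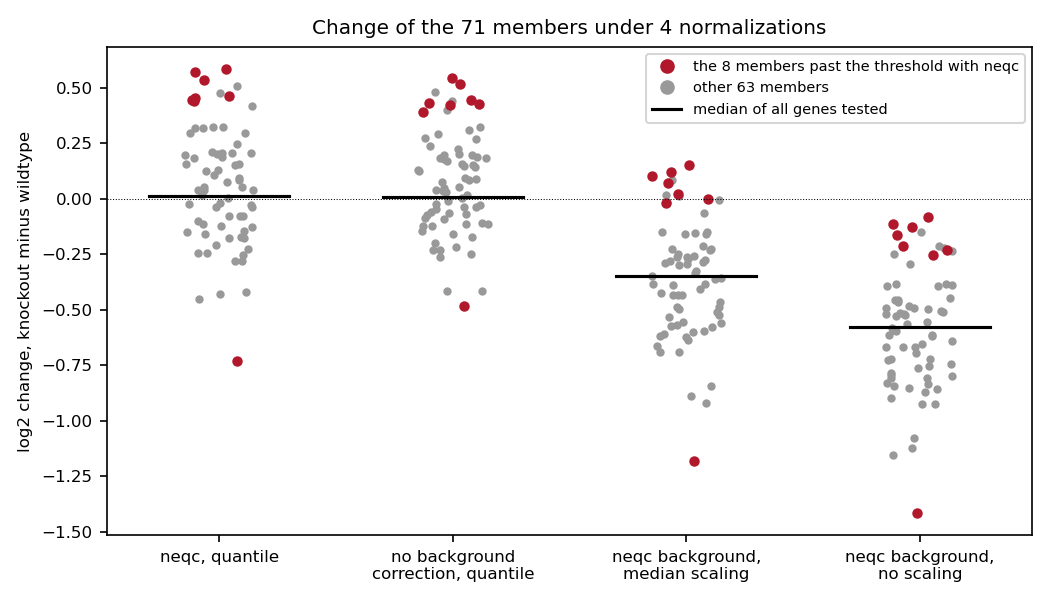
Log2 change (knockout minus wildtype) of the 71 members under 4 normalizations, with the 8 genes called under the first in red and the median of all genes tested as a black bar. The members move down with the median of all genes when arrays are not quantile normalized, and the 7 genes that rose stay above that median and Mrps15 below it.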

How the data were processed

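The authors deposited a probe profile that holds, per the file headers, the mean bead intensity of each probe on each of the 8 arrays, with a detection p-value, the bead standard error (a signal in intensity units) and the count of beads. The values show neither background subtraction nor scaling of these deposited intensities. The authors also deposited log2 values, quantile normalized across arrays, and a comparison table with a log2 fold change, p-values and moderated scores for each probe. The submitters' processing notes name limma. Symbols are those of the array's platform table (23978 of 25697 probes had 1 symbol), and chromosomes and gene order from the RefSeq gene table of GRCm38.p6.

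For the tests, neqc corrected the intensities for background and applied quantile normalization (limma 3.58.1, R 4.3.3, offset 16, background from detection p). This left 12790 probes with a detection p under 0.05 on 4 or more arrays and 8830 genes, each represented by its brightest retained probe. Knockout was set against wildtype with lmFit and eBayes, two-sided, Benjamini-Hochberg adjusted over all 8830 genes, threshold 0.05. The script was tested on simulated data. Groups came from the genotype label, and p-values rest on the spread between clones. The number of arrays limits precision. Genes named are Grhl2, all called members, members with probes of opposite sign, those on chromosomes 6 and 8, and up to 4 called genes of each other list. Other genes are named as examples, chosen after their values were seen. The members and lists were chosen with earlier results of these data known. The clone numbers were checked as pairs: correlations of same-numbered deviations were -0.08 to 0.05. The labels give no pairing, and these correlations, taken over all genes, cannot exclude one. No per-sample column was left unmapped.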

Additional observations from a re-analysis of the deposited data

Results flagged for a closer look

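Among 172 groups of 4 arrays (the members and the other genes named, in knockout and in wildtype), 14 held an array whose gap to the nearest other was over 0.829 of the range of its group, where chance alone gives about 1 in 20. On wildtype replicate 3 Mrpl13 was 12.50, Mrpl16 was 8.90 and Mrpl45 was 5.63, each below the other wildtype arrays. On knockout replicate 1 Mrpl42 was 11.91, below the others, and Mrps10 was 10.20, above them. On chromosome 6, Mrpl53 was 10.72 on knockout replicate 1, below the others, and 11.98 on wildtype replicate 3, above them, and Mrpl51 was 6.26 on knockout replicate 1, above the others. Mrps15 was 7.12 on knockout replicate 4 and Mrpl23 was 11.92 on wildtype replicate 4, each below its group. Wildtype replicate 1 was low for Atp5g1 (12.25), Gatb (6.20) and Noa1 (10.11). Grhl2 itself was 7.06 on knockout replicate 3, against 7.86 to 7.99 on the other knockout arrays.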

How the results depend on the processing

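With all arrays 1211 genes changed, 7 members rose, 1 fell and the members' median was 0.05. Leaving out each array in turn gave 510 to 1440 genes, 1 to 9 members higher, 0 to 3 lower and a median of 0.05 to 0.09. With no background correction, and equally on the authors' deposited log2 values, 12 members rose and 3 fell (16.5% of all genes called, against 13.7%), with normexp at an offset of 50 10 and 3 (16.3%), with a variance trend and robust moderation 14 and 3 (17.6%), and with array weights 12 and 3 (24.6%, 2175 genes). With median scaling 3607 genes changed, 0 members rose and 27 fell (median -0.35), and without scaling between arrays 5771 genes, 0 and 51 (median -0.58). At an adjusted p under 0.01 there were 167 genes and 0 members. With array brightness as a covariate 5 genes and 0 members passed and the median was 0.25. The replicate block left 671 genes, 1 member higher (Mrpl58) and 0 lower, and the labels do not pair these clones. Without wildtype replicate 3 and knockout replicate 1 together 3 members fell (19.7% of all genes called). With no detection filter all 76 members were tested, 8 rose and 1 fell (6.27% of 16593 genes called). Quantile normalization after taking log2, an alternative chosen after seeing the data, called the same 8 members. Signs turned with median scaling for Mrpl55 (-0.0213), Mrps16 (-0.000872), Noa1 (-0.0020) and Clpp (-0.0848). Without scaling they turned for Mrpl28 (-0.16), Mrpl46 (-0.21), Mrpl55 (-0.25), Mrpl58 (-0.13), Mrps16 (-0.23), Mrps34 (-0.11), Mrps9 (-0.0810), Gatc (-0.14), Rbfa (-0.0273), Noa1 (-0.23), Clpp (-0.32) and Atp5g1 (-0.0344). With brightness as a covariate Mrps15 was 0.21. The cause of these shifts was not tested. Of the other genes named, Ptcd3, Gatb, Cox6c and Atp5g1 kept their calls with each array left out. Gfm1 lost its call when any of 7 arrays was left out, Clpp with any of 8, Noa1, Mterf3, Ndufb11 and Grhl2 with any of 6, Wars2, Rbfa and Ndufaf4 with any of 5, Tfam with any of 3 and Gatc with any of 2.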
